A study of Mus musculus with 2 samples.

Results

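Dividing lymphocytes were examined in single-cell RNA libraries from kidneys of MRL-lpr mice, an inbred strain that carries the lpr mutation of the death receptor gene Fas and develops lupus nephritis with age. Members were chosen by their measured UMIs: a cell entered the group if it held a UMI (a count of 1 captured mRNA molecule) of Ptprc, which encodes the leukocyte antigen CD45, a UMI of any of the lymphocyte genes Cd3d, Cd3e, Cd3g, Cd79a, Il1rl1 and Ncr1, and UMIs of at least 2 of the 4 cycle genes Mki67, Top2a, Birc5 and Cdk1. By this rule 262 of 21661 filtered cells were members, 85 of 11429 in the young library and 177 of 10232 in the old library. Each library was a single 10x Genomics 3′ library from pooled kidneys of 1 age, old mice being severely diseased and young mice the mildly diseased comparison. Both libraries carried the same genotype, and the labels name no treatment. The cells had been enriched for innate lymphoid cells with magnetic beads and sorted as live before capture, so a share of a library is not the frequency of a cell type in the kidney. With 1 library per age there is no replicate of either age, no difference between them can be tested, and every interval given here is an exact 95% interval that covers counting error only.

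A dividing cell copies its DNA in S phase and separates the copies in mitosis after G2. Mki67 encodes the Ki-67 protein that coats mitotic chromosomes, Top2a the topoisomerase that untangles sister chromatids, Birc5 the survivin subunit of the chromosomal passenger complex, and Cdk1 the kinase that drives entry into mitosis. In resting cells many of these genes are held silent through a short promoter element, the cell cycle genes homology region (CHR), while S phase genes are regulated through sites for E2F factors. Mature T cells, B cells, natural killer (NK) cells and group 2 innate lymphoid cells (ILC2) rest in tissue until antigen or cytokines make them divide. Mice without functional Fas also accumulate T cells that lack both the CD4 and CD8 coreceptors.

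The promoters of the cycle genes are shown because these are the genes on which the cells were selected and because other G2/M genes were higher in the same cells. Each window runs from 250 bases before the start of the transcript to 50 bases after it, from RefSeq on build GRCm38.p6, read 5′ to 3′ on the strand of the gene. Capitals mark the CHR word TTTGAA, the CCAAT box CCAAT and the E2F words TTTGGCGC, TTTCGCGC, TTTGCCGC and TTTCCCGC on either strand, and none of the marked words overlap. The windows are at chr7:135716330-135716629 (minus strand) for Mki67, chr11:99024140-99024439 (minus strand) for Top2a, chr11:117848987-117849286 (plus strand) for Birc5 and chr10:69352863-69353162 (minus strand) for Cdk1. The last window, at chr8:57511593-57511892 (plus strand), belongs to Hmgb2, the G2/M gene outside the rule with most UMIs in the dividing lymphocytes.
Mki67: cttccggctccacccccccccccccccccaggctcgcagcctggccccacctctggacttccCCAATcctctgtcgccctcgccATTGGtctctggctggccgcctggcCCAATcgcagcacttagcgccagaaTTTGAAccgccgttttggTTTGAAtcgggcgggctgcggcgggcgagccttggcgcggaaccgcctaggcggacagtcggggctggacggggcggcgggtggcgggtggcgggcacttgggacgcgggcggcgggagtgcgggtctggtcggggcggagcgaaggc
Top2a: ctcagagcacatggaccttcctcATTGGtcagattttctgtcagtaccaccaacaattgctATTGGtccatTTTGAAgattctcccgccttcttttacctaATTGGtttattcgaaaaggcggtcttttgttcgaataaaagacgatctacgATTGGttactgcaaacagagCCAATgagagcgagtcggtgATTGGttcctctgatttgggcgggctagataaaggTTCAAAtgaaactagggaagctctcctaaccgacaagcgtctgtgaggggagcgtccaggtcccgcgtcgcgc
Birc5: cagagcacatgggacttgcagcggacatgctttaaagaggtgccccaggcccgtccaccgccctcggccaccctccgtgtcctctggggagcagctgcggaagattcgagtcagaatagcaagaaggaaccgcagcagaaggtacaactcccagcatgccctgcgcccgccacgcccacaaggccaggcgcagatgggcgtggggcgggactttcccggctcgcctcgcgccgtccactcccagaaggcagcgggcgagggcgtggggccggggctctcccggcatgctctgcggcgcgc
Cdk1: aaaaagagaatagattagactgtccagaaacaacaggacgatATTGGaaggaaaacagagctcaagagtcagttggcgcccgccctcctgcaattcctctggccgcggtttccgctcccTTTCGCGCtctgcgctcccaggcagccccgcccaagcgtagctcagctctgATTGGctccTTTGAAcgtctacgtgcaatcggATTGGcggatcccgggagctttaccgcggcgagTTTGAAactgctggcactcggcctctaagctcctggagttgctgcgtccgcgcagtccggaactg
Hmgb2: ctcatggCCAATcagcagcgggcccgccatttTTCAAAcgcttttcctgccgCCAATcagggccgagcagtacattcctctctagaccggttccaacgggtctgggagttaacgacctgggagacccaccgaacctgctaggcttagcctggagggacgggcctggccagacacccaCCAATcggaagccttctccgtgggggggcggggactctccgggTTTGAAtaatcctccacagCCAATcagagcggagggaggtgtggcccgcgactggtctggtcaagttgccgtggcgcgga

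The Mki67 window held 2 CHR words and 3 CCAAT boxes, the Top2a window 2 and 6, the Cdk1 window 2 and 3 with 1 E2F word, and the Hmgb2 window 2 and 4. None of these words was found in the window of Birc5, which says only that the letters are not in this stretch. Among promoters of the 51 G2/M genes on the list used below, of which 44 were matched to 49 promoters, 65.3% held a CHR word and 51% held both a CHR word and a CCAAT box. Of all 32851 promoters in the table, 17.9% and 6.95% did so. The 31 matched promoters of the 38 S phase genes had the other pattern, with a CHR word in 19.4% and an E2F word in 35.5%, where 2.26% of all promoters and 4.08% of G2/M promoters held an E2F word.

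Several measurements bear on all results below. The dividing cells were deep, with a median of 13171 UMIs in the young and 13320 in the old library, where the other lymphocytes had 5105 and 5311, and a deeper cell has more chances to show a UMI of a cycle gene or of a lineage gene. The study's methods name female mice, yet 63.5% of young and 48.0% of old dividing lymphocytes had UMIs of Y-linked genes without Xist, and 20% and 36.2% had Xist without Y-linked genes. Both libraries therefore hold cells of both kinds, and the dividing share was 3.85% (2.91% to 5.0%) among Y-linked and 2.93% (1.71% to 4.64%) among Xist lymphocytes of the young library, and 4.53% (3.64% to 5.58%) and 3.21% (2.48% to 4.08%) in the old library. At least 2 UMIs of the kidney epithelial genes Lrp2, Slc34a1, Slc12a1, Umod and Aqp2 were present in 49.4% of young and 18.1% of old dividing cells, and in 33.9% and 13.6% of other lymphocytes. Scrublet called 6 of the 85 and 7 of the 177 members doublets. The libraries shared 41 cell barcodes, 0 of them among the members. Background of the cycle rule was read in 2 other cell types. Among neutrophils, which do not divide once mature, 1 of 205 young (0.488%, median 2798 UMIs) and 0 of 220 old neutrophils, which allows up to 1.36% (median 5486 UMIs), held at least 2 cycle genes. Among proximal tubule cells without Ptprc, which were as deep as the members, with medians of 15022 and 15816 UMIs, 245 of 6132 young (4.0%) and 54 of 3291 old cells (1.64%) did. The young tubule share is not below that of the lymphocytes, and whether those tubule cells divide or hold RNA of other cells was not tested.

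The label of proliferating cells was checked on 38 S phase and 51 G2/M genes that the rule did not use. Their summed level per cell had a median of 11536 CPM (UMIs of the genes in question, scaled to a common total of UMIs per cell or set of cells) in the young and 6275 in the old dividing lymphocytes, against 2013 and 2406 in lymphocytes without any cycle gene. In the young library 72 of 85 members (84.7%, 75.3% to 91.6%) lay above the 95th percentile of the lymphocytes without a cycle gene, but in the old library only 96 of 177 did (54.2%, 46.6% to 61.7%). The rest of the old members therefore had S phase and G2/M levels within the range of most lymphocytes without a cycle gene. Such a lymphocyte can lack the cycle genes by chance of capture, so these are not cells known not to divide. Where the members fell depended on how many of the 4 cycle genes they held. All 43 young and all 59 old cells with all 4 genes were above that level, as were 17 of 17 young and 21 of 27 old cells with 3 genes. With 2 genes it was 12 of 25 young cells (48.0%) and 16 of 91 old cells (17.6%, 10.4% to 27.0%). Of the old 2-gene cells 58 held the pair Mki67 and Top2a, with a median of 2726 CPM over the S phase and G2/M genes, close to the 2406 of cells without a cycle gene. Lymphocytes outside the group hold fewer than 2 of the 4 genes by the rule. Among them a Top2a UMI was found in 165 young and 666 old cells, a Birc5 UMI in 18 and 21. These counts show which gene was seen without the others, not how well each marks division.

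The cutoff of 2 genes therefore fell inside a continuum. Cells just inside it, with exactly 2 genes, had a cell median of 1171 CPM of S phase and 2022 of G2/M genes in the young library and of 848 and 1777 in the old library. Cells just outside it, with exactly 1 gene (263 young, 873 old), had 641 and 1541 in the young and 747 and 1676 in the old library. Cells with all 4 genes had 3657 and 14836 in the young and 4974 and 11660 in the old library. For this reason the main counts below are also given for the 60 young and 86 old cells with 3 or 4 cycle genes, which are 2.19% (1.67% to 2.81%) and 1.67% (1.34% to 2.06%) of the lymphocytes.

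**Figure D1:**
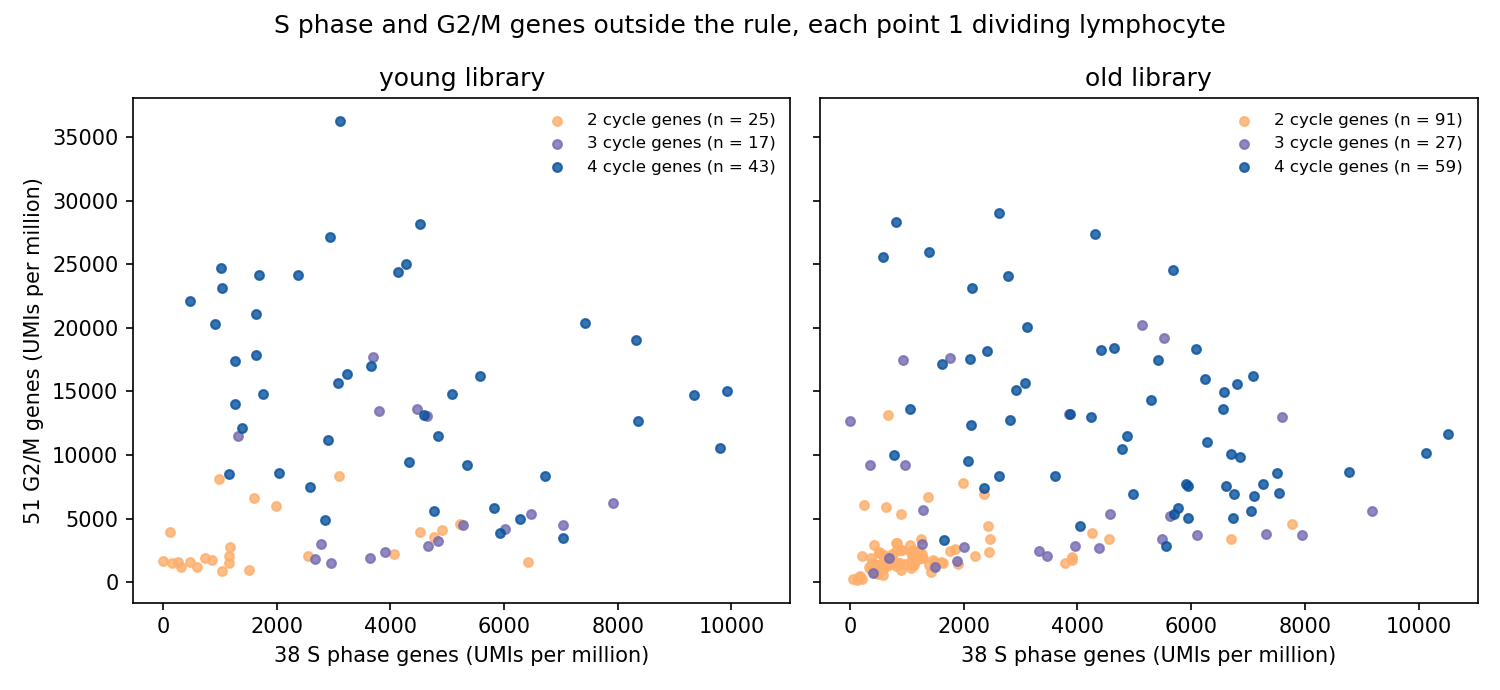
Summed level of 38 S phase genes (x axis) and 51 G2/M genes (y axis), in CPM, for each dividing lymphocyte of the young (left) and old (right) library, coloured by the number of rule genes with a UMI. Most of the 91 old cells with 2 cycle genes sit in the low corner of the plot, while the 43 young and 59 old cells with 4 genes reach up to 36284 and 29019 CPM of G2/M genes.

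Dividing lymphocytes of the old library were mostly T cells, and those of the young library were spread over several lineages. Lineage was read from the genes of the rule: Cd3d, Cd3e and Cd3g encode chains of the T cell receptor complex, Cd79a a chain of the B cell receptor complex, Il1rl1 the receptor for interleukin 33 that marks ILC2 and some T cells, and Ncr1 the activating receptor NKp46 of NK cells and group 1 innate lymphoid cells. A single UMI is weak evidence of lineage: Cd3d had a UMI in 18% of young and 20.9% of old neutrophils, Cd79a in 10.2% and 6.36%, Il1rl1 in 6.34% and 0%, and Ncr1 in 0.976% and 0.909%. Of 177 old members 140 held Cd3 genes alone (79.1%, 72.4% to 84.8%). Of 85 young members 22 did (25.9%, 17.0% to 36.5%), the same number held Il1rl1 alone, and 17 held Ncr1 alone (20%, 12.1% to 30.1%). No old member held Il1rl1 alone, and 11 (6.21%) held Ncr1 alone. Cd79a alone marked 8 young and 11 old members. The remainder held genes of 2 lineages: Cd3 with Il1rl1 in 7 young and 6 old cells, Cd3 with Ncr1 in 5 and 4, Il1rl1 with Ncr1 in 3 and 0, and Cd79a with another in 1 and 5. With 3 or 4 cycle genes the same order held, with Cd3 alone in 69 of 86 old cells (80.2%, 70.2% to 88.0%) and 15 of 60 young cells (25.0%, 14.7% to 37.9%), and Il1rl1 alone in 0 of 86 and 17 of 60 (28.3%, 17.5% to 41.4%).

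**Figure D2:**
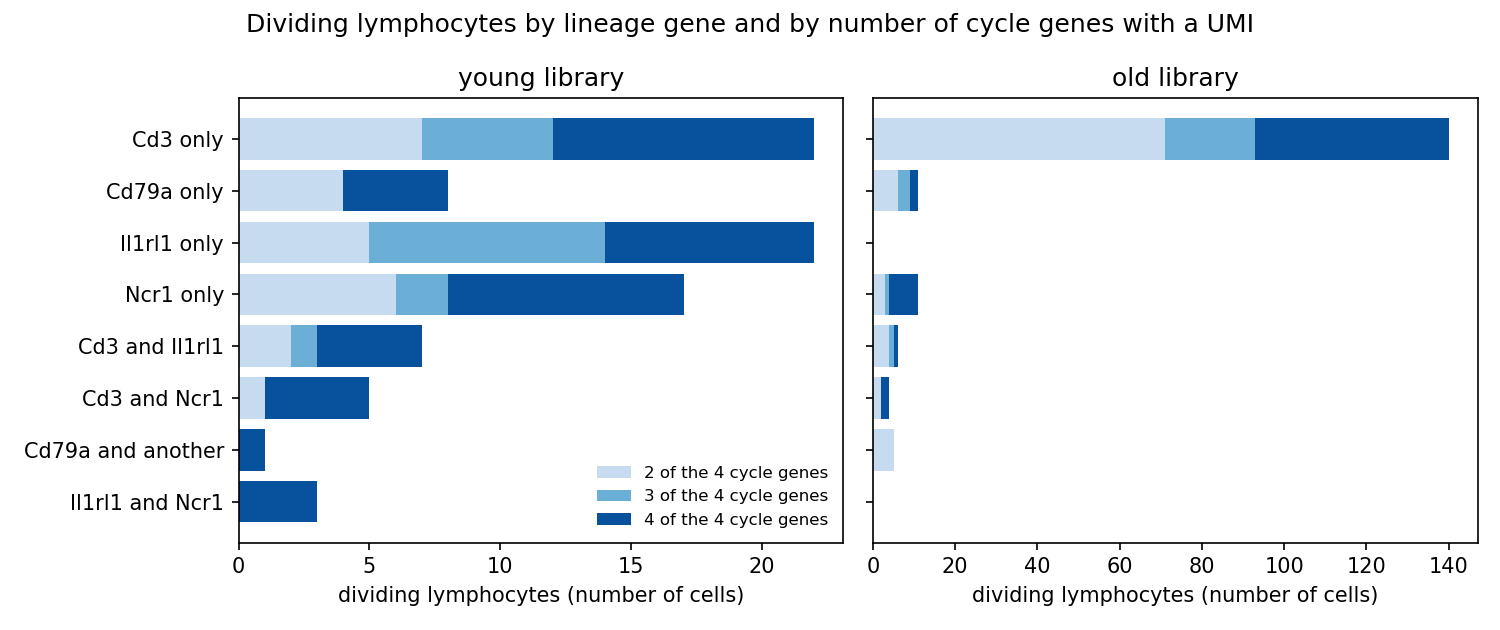
Number of dividing lymphocytes (x axis) by the lineage genes they held (y axis) in the young (left) and old (right) library, stacked by the number of cycle genes with a UMI. The x axes differ: Cd3-only cells number 22 in the young and 140 in the old library, and 71 of the old ones held only 2 cycle genes.

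The Cd3-only share of the dividing cells was close to that of all lymphocytes captured. Cd3-only cells were 23.6% of young and 80.4% of old lymphocytes, against 25.9% and 79.1% of the dividing ones. Within the Cd3-only class 22 of 647 young cells (3.40%, 2.14% to 5.10%) and 140 of 4134 old cells (3.39%, 2.86% to 3.98%) held at least 2 cycle genes, values that could not be told apart by counting error. With 3 or 4 cycle genes the shares were 15 of 647 (2.32%, 1.30% to 3.80%) and 69 of 4134 (1.67%, 1.30% to 2.11%), since 71 of the 140 old cells held only 2 genes, and these intervals overlap too. The number of dividing T cells thus differed between the libraries as did the number of T cells captured, and the enrichment and sort bear on that number. Over all lymphocytes the dividing share was 3.1% among young cells (2.48% to 3.82%) and 3.44% among old cells (2.96% to 3.98%).

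Il1rl1-only cells had members in the young library alone. They made up 39.0% of young lymphocytes and 22 of 1070 divided (2.06%, 1.29% to 3.1%). In the old library 0 of 262 divided, which allows a share of up to 1.15%, and the exact interval of 0% to 1.40% overlaps that of the young library. Cells of at least 5000 UMIs were also thinned to that number before lineage was read. The shallower cells, 1282 young and 2250 old lymphocytes, were left out. Then 7 of 552 young (1.27%, 0.511% to 2.60%) and 1 of 164 old Il1rl1-only cells (0.61%, 0.0154% to 3.35%) held at least 2 cycle genes. Over every cell with an Il1rl1 UMI, with or without other lineage genes, the shares were 32 of 1381 (2.32%, 1.59% to 3.26%) and 6 of 380 (1.58%, 0.582% to 3.40%), intervals that overlap widely. The 6 old cells all held Cd3 genes as well. Their cycle genes were low: 1 of the 6 lay above the level set by the lymphocytes without a cycle gene, where 6 of 7 young cells with both genes did.

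Ncr1-only cells had the highest dividing share of the single-lineage classes in the young library, 17 of 232 (7.33%, 4.33% to 11.5%). The old library had 11 of 242 (4.55%, 2.29% to 7.99%), and these intervals overlap. With 3 or 4 cycle genes the shares were 4.74% (2.39% to 8.33%) and 3.31% (1.44% to 6.41%). Cd79a-only cells divided in 8 of 379 young (2.11%, 0.916% to 4.12%) and 11 of 227 old cells (4.85%, 2.44% to 8.5%), and with 3 or 4 genes in 1.06% and 2.20%. The old Cd79a-only members had a median depth of 35836 UMIs, the highest of the single-lineage classes, so depth moved with this value and its part was not tested.

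**Figure D3:**
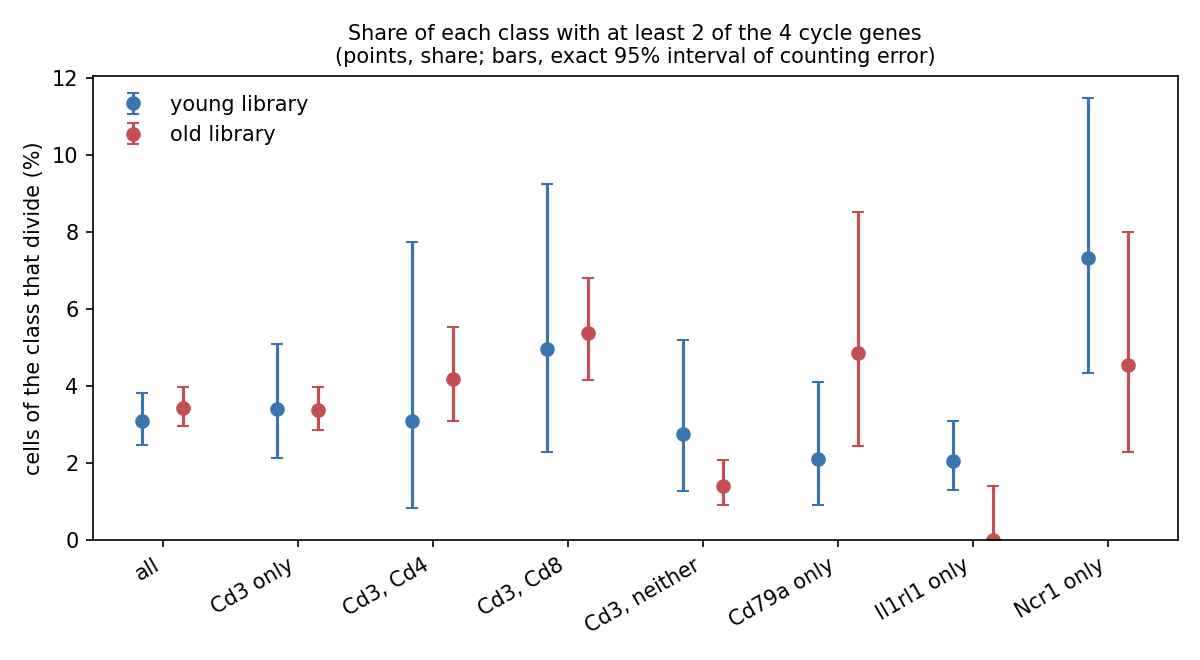
Share of cells of each class that held at least 2 cycle genes (y axis, percent) in the young (blue) and old (red) library; points are shares and bars exact 95% intervals. The Ncr1-only cells of the young library are highest at 7.33%, the old Il1rl1-only cells lie at 0, and the Cd3-only cells of both libraries lie at 3.40% and 3.39%.

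Among the T cells, Cd8 cells held the largest part of the dividing cells in the old library at full depth. CD4 and CD8 are the coreceptors of helper and cytotoxic T cells. Of the 140 old dividing T cells 64 held Cd8a or Cd8b1 alone (45.7%), 48 held Cd4 alone (34.3%), 4 held both and 24 held neither (17.1%). Of the 22 young ones 9 held Cd8, 4 Cd4, 0 both and 9 neither. As a share of their own class, 64 of 1191 old Cd8 cells divided (5.37%, 4.16% to 6.81%), 48 of 1145 Cd4 cells (4.19%, 3.11% to 5.52%) and 24 of 1701 cells with neither (1.41%, 0.906% to 2.09%). The interval of the cells with neither coreceptor UMI lies below those of the Cd8 and Cd4 cells. It overlaps that of the 97 cells with both, of which 4 divided (4.12%, 1.13% to 10.2%). In the young library the shares were 9 of 181 (4.97%), 4 of 129 (3.1%) and 9 of 325 (2.77%), with intervals that overlap.

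The low value of cells with neither coreceptor moved with depth. Those cells that did not divide had a median of 4169 UMIs, against 6035 for the Cd8 and 5297 for the Cd4 cells of the old library, and a shallow cell can lack a coreceptor UMI by chance of capture. With classes kept and every cell of at least 5000 UMIs thinned to that number for the cycle genes, the shares became 2.50% (1.40% to 4.08%) for neither, 4.73% (3.37% to 6.44%) for Cd8 and 3.65% (2.35% to 5.38%) for Cd4, and these intervals overlap. The order was not stable when coreceptors were read after thinning too: at 5000 UMIs the shares were 4.33% for neither, 4.38% for Cd8 and 3.05% for Cd4, and at 1000 UMIs 0.91%, 0.376% and 0.743%, with 14 of the 18 dividing T cells then in the class with neither. With 3 or 4 cycle genes and no thinning they were 0.529% (0.242% to 1.0%), 3.27% (2.34% to 4.45%) and 1.57% (0.934% to 2.47%). In that stricter set 39 of 69 old dividing T cells were Cd8 cells (56.5%, 44.0% to 68.4%). The class with neither coreceptor also held RNA of neutrophils. Old T cells that did not divide had 31330 UMIs of the neutrophil gene S100a9, and 26207 of these lay in that class. The part of such cells in its dividing share was not tested.

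UMIs of smaller T cell subsets were rare among the members. Foxp3, which encodes the factor that defines regulatory T cells, had a UMI in 3 of 22 young and 7 of 140 old dividing T cells, and 6.82% (1.43% to 18.7%) and 5.47% (2.23% to 10.9%) of Foxp3 T cells held at least 2 cycle genes. Thinned to 5000 UMIs, 2 of 16 young and 0 of 54 old Foxp3 T cells did. The interval of the old value, 0% to 6.60%, includes the 5.47% found at full depth. Trdc, the constant gene of the delta chain of the γδ T cell receptor, had a UMI in 2 young and 3 old dividing T cells, 2.90% and 3.90% of the Trdc T cells, and a Trdc UMI was also present in 21.9% of young and 31.6% of old Ncr1-only cells outside the group. T cell receptor variable genes were rarely captured. Of the old dividing T cells 31 showed exactly 1 Trbv gene, and these 31 cells spread over 12 genes, the most frequent being Trbv13-1 with 5 cells (16.1%, 5.45% to 33.7%). Among the other old T cells with 1 Trbv gene, 542 cells spread over 21 genes, led by Trbv12-2 with 22.1%. Trbv13-1 was at 11.4% (8.88% to 14.4%) there, an interval that overlaps that of the dividing cells. A set of more cells can also show more genes.

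Dividing T cells were next compared with the other T cells of the same library, gene by gene, on UMIs summed over the cells of a set and scaled to CPM. A gene was counted where it had at least 100 UMIs over both classes and lay at least 2-fold apart. In the young library 6.33% of 5923 genes were at least 2-fold higher and 15.7% at least 2-fold lower in dividing T cells. In the old library 4.44% of 10826 genes were higher and 11.1% lower, and the median log2 ratio over all genes was -0.07 and -0.14. The other T cells held more UMIs, so a gene absent from dividing cells passed the minimum at a lower CPM than a gene absent from other cells. The shares of higher and lower genes can therefore not be set against each other. A cycle gene that is near 0 in other T cells passes the minimum only through the dividing cells, so counts over the cycle lists describe them and are no support.

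The S phase genes outside the rule were higher in the dividing T cells of both libraries, as the choice of cells makes likely. Of 38 S phase genes 18 passed the minimum in the young and 34 in the old library, and 18 and 32 of these were at least 2-fold higher. Rrm2, the small subunit of the ribonucleotide reductase that makes deoxynucleotides, stood at 352 CPM in young dividing and 2.82 in other T cells, and at 189 and 2.18 in the old library. These levels give log2 ratios of 6.96 (6.10 to 7.96) for young and 6.44 (6.05 to 6.86) for old cells. Slbp, which binds the stem loop of histone mRNA, differed less, with log2 ratios of 1.21 (0.78 to 1.62) and 1.15 (1.02 to 1.29). Mcm6, a subunit of the replicative helicase, had log2 ratios of 1.70 and 1.64. The 67 genes of the replication histone clusters together stood at 2117 CPM in young dividing and 460 in other T cells, and at 2294 and 589 in the old library.

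Of 51 G2/M genes 18 passed in the young and 42 in the old library, and 17 and 38 were at least 2-fold higher. Hmgb2, a chromatin protein, was the most abundant, at 3354 CPM in young dividing and 432 in other T cells and at 2932 and 516 in the old library, with log2 ratios of 2.96 (2.85 to 3.07) and 2.51 (2.46 to 2.55). Ube2c, the ubiquitin-conjugating enzyme of the anaphase-promoting complex, had log2 ratios of 6.84 (6.20 to 7.55) and 7.0 (6.62 to 7.41). Tubb4b, a tubulin, and Smc4, a condensin subunit, were less far apart, at 1.75 and 1.40 for Tubb4b and at 1.68 and 0.66 for Smc4. In the old library, the dividing T cells with 3 or 4 cycle genes, set against the same other T cells, gave 1.01 (0.91 to 1.12) for Smc4 and 2.95 for Hmgb2.

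Part of the nucleotide synthesis genes were also higher, and few growth genes were. Of 16 genes of nucleotide synthesis 12 passed the minimum in the young and 16 in the old library, and 8 in each were at least 2-fold higher, with 1 young gene at least 2-fold lower. Dut, which removes dUTP and keeps uracil out of DNA, stood at 388 CPM in young dividing and 56.6 in other T cells and at 423 and 65.5 in the old library, with log2 ratios of 2.78 (2.46 to 3.09) and 2.69 (2.58 to 2.80). Impdh2, which commits nucleotides to guanine, had log2 ratios of 1.59 and 1.27. The 14 growth genes moved less: 3 of 11 tested young and 1 of 14 tested old genes were 2-fold higher. Npm1, a nucleolar protein of ribosome assembly, had log2 ratios of 0.63 (0.47 to 0.79) and 0.58 (0.51 to 0.64), and Ncl, another nucleolar protein, 0.86 and 0.45.

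The regulators of the cycle did not move as 1 group. Ccnd2, the D-type cyclin with most UMIs in these cells, was lower in dividing T cells, with log2 ratios of -0.79 (-1.21 to -0.40) among young and -0.71 (-0.83 to -0.58) among old cells. Its partner kinase Cdk4 was higher, at 1.5 (1.11 to 1.87) and 1.05 (0.90 to 1.21). Ccnd3 had intervals that include 0 in both libraries, at 0.10 (-0.30 to 0.48) and -0.08 (-0.23 to 0.06). Of 24 regulators 11 passed in the young library with 2 at least 2-fold higher and 1 lower, and 20 in the old library with 8 higher and 2 lower.

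Genes of resting and naive T cells were lower in dividing T cells in both libraries. All 17 genes of this list passed the minimum, 10 in the young and 11 in the old library were at least 2-fold lower and none was 2-fold higher, with medians of -1.20 and -1.26. Btg1, an antiproliferative gene of resting lymphocytes, stood at 749 CPM in young dividing and 1715 in other T cells, and at 1007 and 2108 in the old library, with log2 ratios of -1.20 (-1.38 to -1.01) and -1.07 (-1.13 to -1.01). Btg2, its paralogue, had log2 ratios of -0.99 and -1.28. Klf2, the factor that keeps T cells in recirculation and quiescence, was at -0.82 (-1.08 to -0.56) among young and -1.92 (-2.04 to -1.79) among old cells. Tsc22d3, a glucocorticoid-induced gene, was at -0.82 and -1.39.

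Among genes of cell death, Mcl1, an antiapoptotic member of the Bcl2 family, was lower, with log2 ratios of -0.62 and -0.69. Bax, a proapoptotic member of the same family as Mcl1, was at 0.62 and 0.45. Of 11 death genes, 2 of 9 tested young and 0 of 11 tested old genes were at least 2-fold higher, and 1 in each library was 2-fold lower. Of 11 cytokine receptor genes, 0 of 8 and 0 of 10 tested genes were 2-fold higher and 1 in each was lower. Il2rb, the shared receptor chain for interleukins 2 and 15, was at 0.36 (-0.05 to 0.74) and 0.46 (0.32 to 0.59), and Il2rg, their common chain, at -0.36 (-0.80 to 0.05) and -0.56 (-0.71 to -0.41).

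**Figure D4:**
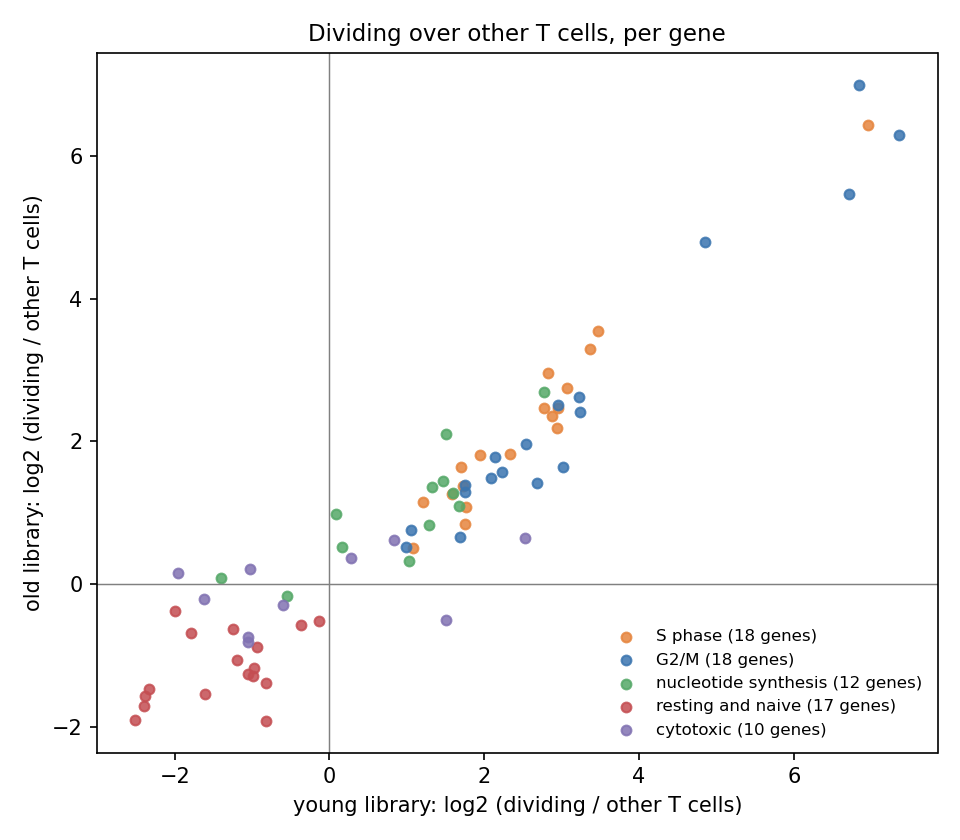
Log2 ratio of CPM, dividing over other T cells, in the young (x axis) and old (y axis) library for genes of 5 lists with at least 100 UMIs in each library. The 18 S phase and 18 G2/M genes plotted lie above 0 on both axes, the 17 genes of resting and naive cells lie below 0 on both, and of the 10 cytotoxic genes 3 lie above 0 on both axes and 4 below 0 on both.

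Outside the cycle lists, the 10 genes with the highest ratio were mostly genes of replication and mitosis. In the young library they were Pclaf, Hist1h1b, Spc24, Hist1h2ae, Hist1h2ap, Naaa, Stmn1, Pttg1, Smc2 and Incenp. Pclaf, which encodes a factor bound to the replication clamp PCNA, led with 245 UMIs in 22 dividing and 19 UMIs in 625 other T cells, a log2 ratio of 7.38. In the old library they were Hist1h3c, Pclaf, Esco2, Kif4, Mxd3, Rad51ap1, Sgo1, Spc24, Cep55 and Shcbp1, with Hist1h3c at 237 UMIs in dividing and 2 UMIs in other T cells. Of the 10 in each library, Pclaf and Spc24, a kinetochore protein, were shared. Naaa, an acid amidase, is the exception in the young list: 52.6% of its UMIs came from 1 cell.

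At the low end both libraries named mostly genes of other cell types. The 10 lowest genes of the young library were Hbb-bs, S100a9, Hba-a1, S100a8, Dnase1, Hbb-bt, Apoe, Retnlg, Il1b and Ngp, and those of the old library S100a9, S100a8, Ngp, Ifitm6, Camp, Hba-a1, Retnlg, Ccl9, Hbb-bs and Fn1. The libraries shared 6 of them, which were globin and neutrophil genes. S100a9, a neutrophil calcium-binding protein, had 0 UMIs in dividing and 10502 in other T cells of the young library, and 7 and 31330 in the old library. At least 2 UMIs over 5 neutrophil genes were found in 39 of 625 other and 0 of 22 dividing young T cells and in 100 of 3994 other and 1 of 140 dividing old T cells. The Cd3-only class thus held cells with RNA of neutrophils, outside the dividing cells for the most part, and the part of these cells in the low end of the ranking was not tested. The summed level of 9 proximal tubule genes was also lower, at 8108 CPM in dividing and 25840 in other T cells of the young library and 3918 and 8730 in the old library.

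The identity of the classes was checked on markers that the rule did not use. Of the Cd3-only members 20 of 22 young and 137 of 140 old cells held at least 2 UMIs over 10 other T cell genes. At least 2 UMIs over 12 ILC2 genes were present in 21 of 22 young Il1rl1-only members, over 10 NK and group 1 genes in 17 of 17 young and 11 of 11 old Ncr1-only members, and over 10 B cell genes in 8 of 8 young and 11 of 11 old Cd79a-only members. Cells this deep reach 2 UMIs easily. Judged by which of the marker lists had most UMIs, 19 of 22 young and 134 of 140 old Cd3-only, 22 of 22 young Il1rl1-only, 14 of 17 young and 11 of 11 old Ncr1-only, but 6 of 8 young and 7 of 11 old Cd79a-only members were led by their own list. In 3 of the 22 young dividing T cells the MHC class II genes H2-Aa, H2-Ab1, H2-Eb1 and Cd74 had 20 or more UMIs together, a level reached by 9 of 140 old dividing T cells.

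Among gene lists with at least 10 genes measured, the cytotoxic list had the largest median difference between the dividing T cells of the libraries. Over all 4024 genes with at least 100 UMIs in both sets together, 4.6% were at least 2-fold higher and 1.22% at least 2-fold lower in old than in young dividing T cells. The old set was larger, 140 against 22 cells. A gene absent from young cells thus passed the minimum at a lower CPM than a gene absent from old cells. The shares of higher and lower genes can therefore not be set against each other, here or among other T cells below. Of the 10 cytotoxic genes 8 were at least 2-fold higher and 1 was lower, with a median log2 ratio of 1.64 against 0.01 over all genes. Ccl5, a chemokine of effector T cells, stood at 3087 CPM in old and 1122 in young dividing T cells, a log2 ratio of 1.46 (1.31 to 1.61), and was found in 70.7% and 45.5% of the cells. Nkg7, a granule membrane protein, stood at 1915 and 828, a log2 ratio of 1.21 (1.03 to 1.39). Ccl4, an inflammatory chemokine, was at 2.21 (1.81 to 2.65). Gzma, a granule protease, was the gene that was lower, at 160 and 740 CPM, but 227 of its 244 UMIs in the young library came from 1 cell. Gzmb, another granule protease, named after its value was seen, was at 423 and 443, a log2 ratio of -0.07 (-0.32 to 0.20).

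Within each library the cytotoxic genes went both ways with division. Of the 10 genes 3 were higher in dividing than in other T cells of both libraries, and 4 were lower in both. In the young library 2 were at least 2-fold higher and 5 lower, with a median log2 ratio of -0.82. Nkg7 was slightly higher, with log2 ratios of 0.28 (0.10 to 0.46) among young and 0.37 (0.32 to 0.41) among old cells. The young value turned to -0.039 without cells holding epithelial UMIs, and it was also below 0 with the mean of each cell's CPM. T cells that did not divide showed a like difference between the libraries. Over 10938 genes 5.49% were at least 2-fold higher and 5.12% lower in old than in young other T cells, and of the 10 cytotoxic genes 7 were 2-fold higher, with a median of 1.12. Ccl5 was at 1.22 (1.19 to 1.25) and Nkg7 at 1.12 (1.07 to 1.18) there, near their values among dividing cells. Ccl4 was at 0.80 (0.74 to 0.87), below its value among dividing cells, and Gzmb at 1.81 (1.65 to 1.98), above it. The young set has only 22 cells, so 1 or 2 cells can set a value, as for Gzma.

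**Figure D5:**
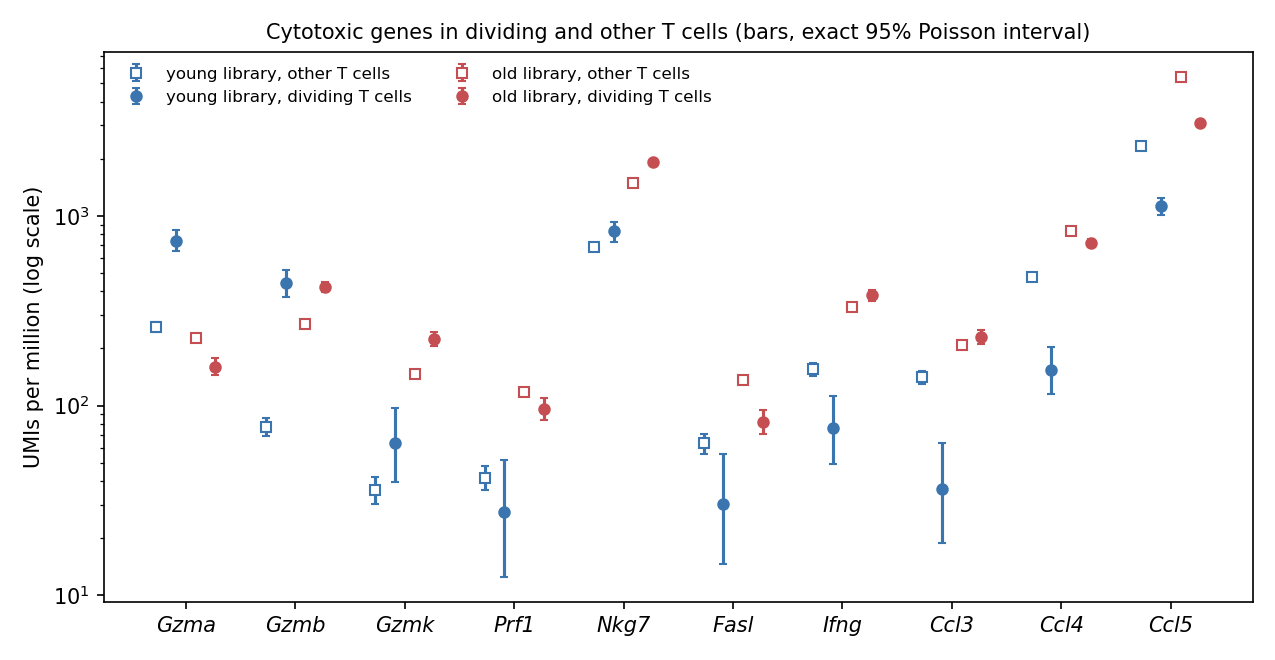
CPM (y axis, log scale) of the 10 cytotoxic genes in other (open squares) and dividing (filled circles) T cells of the young (blue) and old (red) library; bars are exact 95% Poisson intervals. In the old library the dividing cells lie above the young dividing cells for all genes but Gzma, where 1 young cell holds most UMIs, and Gzmb, at 423 and 443.

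Genes of T cell activation and exhaustion showed smaller changes with division. Of 15 genes 3 of 12 tested were at least 2-fold higher and 1 lower in young dividing T cells, and 0 of 15 either way in the old library. Cd69, an early activation antigen, was lower in dividing T cells, with log2 ratios of -1.17 (-1.54 to -0.83) and -0.70 (-0.80 to -0.60). Cd28, the main costimulatory receptor, was at 0.09 (-0.24 to 0.40) among young and -0.42 (-0.52 to -0.31) among old cells. Between the libraries, Lag3, an inhibitory receptor, had the largest ratio of this list and was among the 10 highest genes over all: 419 UMIs in 84 of 140 old and 8 UMIs in 5 of 22 young dividing T cells, a log2 ratio of 2.87 (1.87 to 4.09). Other T cells gave 2.92 (2.62 to 3.23) for Lag3.

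The other genes highest in old over young dividing T cells were Apoe, Ifitm1, Tspan3, Fcer1g, Ifitm3, Ms4a6c, Ddit4, Spp1 and Tubb2b. Several rested on few cells: 62.9% of Apoe and 64.6% of Ifitm1 UMIs of the old library came from 1 cell. Tspan3, a tetraspanin, was more widely spread, with 335 UMIs in 71 of 140 old and 5 UMIs in 3 of 22 young cells, a log2 ratio of 3.22. The lowest genes were Trdc, H2-Eb1, Penk, Cst3, Naaa, H2-Aa, H2-Ab1, Gzma, Cd74 and Cd226. For Trdc the 96 young UMIs lay in 2 cells, for H2-Aa 55.4% and for Cst3, a protease inhibitor abundant in dendritic cells, 51.6% of the young UMIs lay in 1 cell. In T cells that did not divide, Trdc was also lower in the old library, at -2.79 (-2.96 to -2.63).

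The young Il1rl1-only dividing cells carried ILC2 genes of their class, most of them at a lower level than in the other Il1rl1-only cells. Against the 1048 other Il1rl1-only cells, 6.2% of 7640 genes were at least 2-fold higher and 10.2% lower. Gata3, the factor that specifies ILC2, stood at 659 CPM in dividing and 801 in other cells, a log2 ratio of -0.28 (-0.46 to -0.11), with UMIs in 20 of 22 cells. Rora, another ILC2 factor, was at -0.85 (-1.03 to -0.68), with UMIs in all 22 cells. Areg, which encodes the tissue repair factor amphiregulin, was at -0.16 (-0.31 to -0.02). Il13, a type 2 cytokine named here after its value was seen, went the other way: 221 CPM in dividing and 64.9 in other cells, a log2 ratio of 1.77 (1.44 to 2.09), with the 95 UMIs spread over 8 of 22 cells. Of 12 ILC2 genes 11 passed the minimum, 1 of them at least 2-fold higher and 3 lower. The intervals of 9 lay below 0 and that of 1 above it. Their median log2 ratio was -0.54, against -0.01 over all genes tested. The cycle genes outside the rule behaved as in T cells, with Hmgb2 at 2.57 (2.46 to 2.68) and Rrm2 at 7.0 (6.13 to 8.01). Of 17 resting genes 13 passed, 6 at least 2-fold lower and none higher, with Btg1 at -1.52. At least 2 epithelial UMIs were present in 14 of these 22 cells, and the share of Il1rl1-only cells that divided was 1.12% without all such cells. The old library had no dividing Il1rl1-only cell to compare.

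The Ncr1-only dividing cells carried the granule genes of NK cells. In the young library 3.27% of 2630 genes were at least 2-fold higher and 4.94% lower in 17 dividing than in 215 other cells, and in the old library 4.72% of 2905 genes were higher and 8.98% lower in 11 than in 231. Hmgb2 was at 2.46 (2.31 to 2.60) and 1.93 (1.77 to 2.08). Ccl5 stood at 3390 CPM in dividing and 7341 in other cells of the young library and at 10789 and 17436 in the old library. Gzma was at -0.23 (-0.32 to -0.13) and -0.45 (-0.52 to -0.38), and Nkg7 had UMIs in 17 of 17 young and 11 of 11 old dividing cells. Of the 10 NK and group 1 genes, 9 passed in each library, with 4 at least 2-fold lower in the young and 1 in the old library and none higher. Xcl1, a chemokine of NK cells, was at -2.31 (-2.66 to -1.99) in the young but 0.56 (0.37 to 0.74) in the old library, and Tyrobp, the signalling adaptor of NK receptors, at -0.74 in both.

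The Cd79a-only dividing cells were few, 11 old and 8 young, and UMIs of their immunoglobulin and plasma cell genes were spread unevenly over them. Scrublet called 2 of the 8 young and 0 of the 11 old ones doublets. Jchain, which joins the chains of secreted IgA and IgM and marks plasma cells, had UMIs in 7 of 11 old and 1 of 8 young members. As background, Jchain had a UMI in 20 of 140 old dividing T cells (14.3%, 24 UMIs in all, median depth 13027 UMIs) and in 0 of 22 young ones, where the 7 old Cd79a-only members held 4589 UMIs. In the young library that cell held all 1179 Jchain UMIs and all 2941 Igha UMIs. Mzb1, a chaperone of antibody secretion, was found in 10 of 11 old and 7 of 8 young members and in 2 of 140 and 0 of 22 dividing T cells. The old members were deeper, at a median of 35836 against 15323 UMIs, and the part of depth was not tested. Ighg2c, an IgG heavy chain gene named after its values were seen, was found in 5 of 11 old and 0 of 8 young members, and of 371 other young Cd79a-only cells 0 had it, against 45 of 216 old ones. For Ighg1 5 old members had UMIs, and 1 of them held 99.8% of the 11185. Ms4a1, which encodes the B cell antigen CD20, was found in 7 of 11 old and 3 of 8 young members. In the young library 7 of 10 B cell genes were at least 2-fold lower in members than in other Cd79a-only cells, and none was 2-fold higher. Their median log2 ratio was -1.36, against -0.08 over all 3802 genes tested. Of 3 plasma cell genes tested there, 2 were at least 2-fold higher and none was 2-fold lower. Of the 11 old members 5 lay above the level of the cycle genes set by lymphocytes without a cycle gene, and of the 8 young members 5 did. The 5 old cells with Cd79a and another lineage gene were all below it. The level is scaled to all UMIs of a cell, so immunoglobulin UMIs count in its total as in the depth. Igkc, a light chain gene, alone had 138213 UMIs over all members of both libraries. The part of these UMIs in the levels was not tested.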

How the data were processed

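Pooled kidney cells of 1 young and 1 old group of MRL-lpr mice were sequenced as 10x Genomics 3′ single-cell libraries. The deposited matrices hold raw UMI counts per gene and cell, which the authors made with Cell Ranger 3.1.0 (per the file headers) on mm10 (per the submitters' processing notes). Cells under 200 genes or over 20% mitochondrial UMIs were left out. Members, lists and named genes (the 2 to 4 members of each list with most UMIs, and 10 genes at each end of the ratios) were chosen with earlier results of these data known. Shares carry exact Clopper-Pearson, levels exact Poisson and log2 ratios exact binomial 95% intervals. With 1 library per age no test was run. Ratios used CPM of summed UMIs and genes with at least 100 UMIs, and a class at 0 was set to 3 counts. Libraries held 145647185 and 119218130 UMIs after filtering (young, old). Doublets were called with Scrublet in scanpy 1.11.5 and kept. Ratio scripts were tested on simulated data. Promoters came from RefSeq (GRCm38.p6).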

Additional observations from a re-analysis of the deposited data

Results flagged for a closer look

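For 5 genes the log2 ratio of dividing over other T cells had opposite signs in the young and old libraries and passed 2-fold in at least 1 of them, and the difference between the libraries was not tested. Of 180 list genes measured in both libraries 8 had opposite signs with intervals that excluded 0 in both, these 5 among them. Gzma was at 1.51 in the young and -0.51 in the old library, and 93.0% of its UMIs in young dividing T cells came from 1 cell. Il17a, which encodes interleukin 17A, was at 2.59 and -2.07, with its 56 young UMIs all in 1 dividing cell and none in old dividing cells, so that the old value is an upper bound set with 3 counts. Areg was at -4.00 and 0.72, with 1 UMI in young dividing T cells. The chemokine gene Ccl3 was at -1.95 and 0.15. Ifng, which encodes interferon gamma, was at -1.03 and 0.21.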

How the results depend on the processing

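The cycle rule and the depth of the cells moved the values most. Limits of at most 10% mitochondrial UMIs or at least 500 genes, lineage from 2 UMIs or from marker lists, and totals without Malat1 and without mitochondrial, ribosomal and hemoglobin genes moved none of the numbers, shares and gene counts recomputed under them beyond their intervals or, for counts, 1.5 times. Of single genes, the last moved Ccl5 in old dividing over other T cells to -0.84. With 1 cycle gene enough, 348 young and 1050 old cells were members, which was 12.7% and 20.4% of lymphocytes, 15.6% and 20.8% of T cells, 8.5% and 6.11% of Il1rl1-only cells and 20.3% and 16.1% of Ncr1-only cells, and Cd8 cells were 36.3% of old dividing T cells. With at least 3 genes, 86 old cells were members, the shares were 2.19% (young) and 1.67% (old) of lymphocytes and 1.67% of old T cells, Cd8 cells were 56.5% of old dividing T cells, 1991 genes were 2-fold lower in old dividing T cells and 118 were 2-fold higher in old than in young ones. Members above the 95th percentile of the S phase and G2/M genes, a choice made after seeing the data, numbered 96 in the old library, with shares of 1.87% of lymphocytes and 1.94% of T cells, and 56.2% of the T cells were Cd8 cells. Thinned to 1000 UMIs, 5 young and 19 old members were left, at 0.521% and 0.704% of lymphocytes, 0.867% and 0.768% of T cells, 1.61% and 0.568% of Ncr1-only cells and 0% of young Il1rl1-only cells, and T cells were 60.0% and 94.7%, young Il1rl1-only cells 0% and old Cd8 cells 11.1% of their sets. Thinned to 2000 UMIs, 15 and 50 were left, at 0.957% and 1.29% of lymphocytes, 1.45% and 1.24% of T cells, and 0.621% of young Il1rl1-only and 1.60% of young Ncr1-only cells, with T cells 46.7% of the young members. Thinned to 5000 UMIs, added after seeing the data, 40 and 94 were left, with 1.27% of young and 0.61% of old Il1rl1-only cells and 13.7% of young Ncr1-only cells. With lineage from all UMIs and only cycle genes thinned to 5000, also added, 4.18% of young lymphocytes and 12.5% of young Ncr1-only cells divided. Cells with Xist and no Y-linked UMI gave 2.04% of young and 2.76% of old T cells, and T cells were 11.8% of young members. Cells with the opposite pattern gave 3.85% and 4.53% of lymphocytes and 5.06% of old T cells. Without cells holding epithelial UMIs, 43 young members were left, 2.39% of lymphocytes and 1.12% of Il1rl1-only cells, 220 genes were 2-fold higher and 353 lower in young dividing T cells, and Nkg7 in young dividing over other T cells turned to -0.039. Without doublets 602 genes were lower in young dividing T cells. With the mean of each cell's CPM, 589 young and 798 old genes were lower in dividing T cells, 158 were lower in old than in young ones, and the same Nkg7 ratio turned to -0.11. The causes were not tested. No paired analysis was possible because each age had 1 library.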

Other observations

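The old dividing T cells were also split by coreceptor and each set was compared with other T cells of the same kind. Stathmin, a microtubule regulator encoded by Stmn1, had log2 ratios of 4.4 in Cd4 cells, 4.68 in Cd8 cells and 3.81 in cells with neither, and was among the 10 genes with the highest ratio in all 3 sets. Pclaf was at 6.99, 7.96 and 8.13. In Cd4 cells Fabp5, a fatty acid binding protein, was also among the 10 highest, at 3.58. In cells with neither coreceptor the highest 10 held the epithelial genes Cldn7 and Krt7, at 4.58 and 3.35. Genes of this paragraph were chosen after their values were seen.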
